A study of Rattus norvegicus with 4 samples.

Results

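The cell cycle regulators examined here are a list of 49 genes that drive or restrain cell division, grouped by role into G1 cyclins, S phase cyclins, CDK inhibitors, pocket proteins and E2F factors, Myc and Mdm2, replication licensing, mitotic entry, and chromosome and checkpoint functions. A member was taken where a row of the count files carried its name. This gave 39 of the 49 genes, 36 of them by the exact name and the rest under another name, such as Ccnd2 and Top2a under the protein-type names CCND2_RAT and TOP2A_RAT. Ccnd3, Cdk4, Cdk6, E2f2, Mcm3, Mcm4, Mcm5, Cdc25c, Mki67 and Birc5 were not analysed here. Of the 39 genes found, 36 entered the test, which left out genes whose normalized counts averaged under 5 or that had no read in one of the clones, among 13726 tested genes of 25810 listed. The other three were Cdkn2a and Cdkn2b, with 0 reads in all 4 libraries, and Mycn, with 0 reads in both libraries of hrPC12.

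RNA was sequenced from 2 clones of PC12, a rat line derived from a pheochromocytoma, a tumour of adrenal chromaffin cells. The clone wtPC12, labelled wild type, has low levels of the transcriptional repressor REST, and the clone hrPC12, formerly PC12-27, has high levels that arose spontaneously, and no transgene or treatment is named for either. Each clone gave 2 libraries, with 20975027 and 21999191 reads counted on genes in wtPC12 and 27246502 and 21634943 in hrPC12. Each type of cell is 1 clone, so that the effect of REST cannot be told apart from any other difference between the clones, and nothing in the labels says that the 2 libraries of a clone came from separate cultures, so that the p values measure the spread between these libraries, which may be technical.

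Cells enter the cycle when D-type cyclins activate Cdk4 and Cdk6, which phosphorylate the pocket proteins and release the E2F factors. E2F factors switch on cyclin E, cyclin A and the genes that license and copy DNA. Cyclin B with Cdk1 then drives mitosis, the spindle checkpoint holds the chromosomes until all are attached, and the anaphase-promoting complex ends the phase. CDK inhibitors of the Cip/Kip and INK4 families oppose the kinases. PC12 cells divide in serum and are known for leaving the cycle as they differentiate under nerve growth factor.

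Rest itself had 43.0 and 132 normalized counts (reads scaled by library size and composition) in wtPC12 and 964 and 915 in hrPC12, which is in the direction of the labels. Of the chromaffin markers, Th, the enzyme that opens catecholamine synthesis, fell from 202932 and 132838 normalized counts in wtPC12 to 18729 and 21001 in hrPC12, and 5 of 8 tested markers of this origin fell. The leukocyte marker Ptprc had 1 read in hrPC12 replicate 1 and none elsewhere, the Schwann cell marker Sox10 had none, and the 6 leukocyte markers summed to 39.6 and 35.0 normalized counts in wtPC12 and to 85.5 and 96.1 in hrPC12, where Cd68 rose. Of 6 tested fibroblast and mesenchymal markers, Col1a1, Col1a2 and Pdgfrb rose in hrPC12 and Dcn and Thy1 fell, and the list summed to 17998 and 16231 normalized counts in wtPC12 and to 9489.8 and 9697 in hrPC12. Thy1 made up most of that sum, and the other 6 genes of the list summed to 68.6 and 45.3 in wtPC12 and to 958 and 1023 in hrPC12. The part of these marker differences in the results for the cell cycle genes was not tested. In RNA from whole cultures, a smaller share of cells in a phase and less RNA per cell cannot be told apart.

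**Figure D1:**
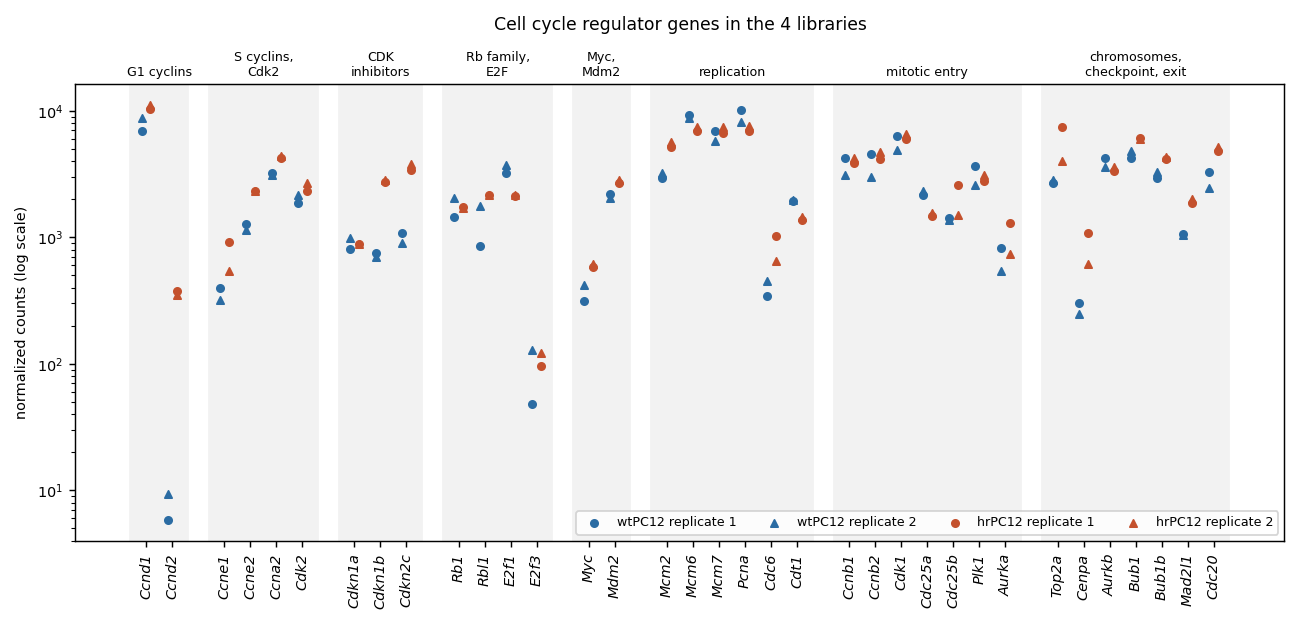
Normalized counts (log scale) of the tested cell cycle regulator genes described here in each library, ordered by role. Blue marks are the 2 libraries of wtPC12 and orange marks those of hrPC12, circles are replicate 1 and triangles replicate 2. Ccnd2 separates the clones by the widest distance, with 5.82 and 9.27 against 373 and 349.

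Among tested members, the 3 largest differences were those of a D-type cyclin and of CDK inhibitors. Cyclin D2 was nearly silent in wtPC12 and present in hrPC12, the CDK inhibitors Cdkn1b and Cdkn2c were over 3 times higher in hrPC12, and cyclin E2, the helicase subunit Mcm2, the centromeric histone Cenpa and the checkpoint genes Mad2l1 and Cdc20 rose less. E2f1 was the only tested member that fell. In the quasi-likelihood test of edgeR, adjusted by the Benjamini-Hochberg method over all 13726 genes, from which every adjusted p below is taken, 8 of the 36 members rose at an adjusted p under 0.05, against 16.1% of all tested genes, and 1 fell, against 16.3%. At the study's thresholds for differentially expressed (DE) genes, an adjusted p under 0.01 and a log2 fold change (log2 FC, hrPC12 over wtPC12) past 2, Ccnd2 was called higher, 1 of 36 members against 4.84% of all tested genes, and 0 members were called lower against 5.46%. Without adjustment, 18 members had a p under 0.05. For unadjusted p, no share over all tested genes is given here or below, so such counts carry no comparison. DESeq2 likewise called 0 members DE lower, against 909 of the 13726 tested genes.

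Most members differed little in size between the clones, and most were higher in hrPC12. Their median log2 FC was 0.43, beside 0.06 for all tested genes, with 27 members above 0 and 9 below it. The median size of the log2 FC was 0.46 in either direction, against 0.74 over all tested genes. Of the 36 members, 29 (80.6%) stayed within 1, against 61.9% of all tested genes. The genes were not matched for level in these comparisons. The 2 libraries of hrPC12 both lay above both of wtPC12 in 20 members, where 37.9% of all tested genes did so, and both lay below in 5 members, against 35.6%. In the other 11 members the clones overlapped.

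**Figure D2:**
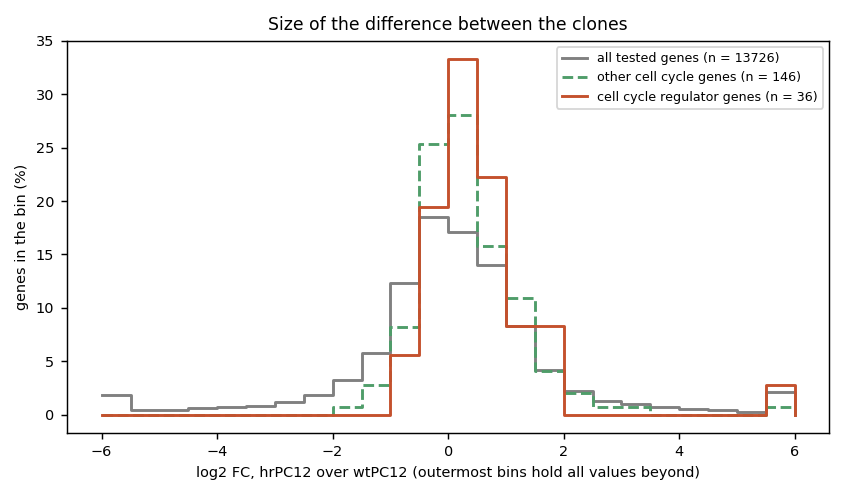
Share of genes (%) in each interval of log2 FC, hrPC12 over wtPC12, for all 13726 tested genes (grey), 146 other cell cycle genes (green, dashed) and the 36 members (orange). The outermost intervals hold every value beyond them. Members gather near 0, and Ccnd2 stands alone at the right.

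One feature of the libraries touches 6 members. Among 10545 genes with at least 100 normalized counts in hrPC12, the ratio of hrPC12 replicate 1 to replicate 2 fell into separate groups, with 2169 genes (20.6%) past a log2 ratio of 0.5, at a median ratio of 1.78, and the rest at a median ratio of 0.955. Cdc6, Ccne1, Cdc25b, Aurka, Cenpa and Top2a were in the upper group, with ratios from 1.57 to 1.86, and the other 30 members were not. In wtPC12 the ratio of replicate 1 to replicate 2 passed the same limit in 12.7% of genes and in 2 of 34 members, Ccnb2 at 1.51 and Aurka at 1.52. Counted in either direction the libraries of wtPC12 differed more than those of hrPC12, with a median size of the log2 ratio of 0.35 against 0.14 over all these genes and 0.25 against 0.11 over the members, and Rbl1 had a ratio of 0.483 in wtPC12. In windows of 7 neighbouring genes the median log2 ratio was 0.82 around Aurka and 0.79 around Cenpa. Around the other 4 genes it was lower, at 0.24 for Top2a, 0.09 for Ccne1, 0.03 for Cdc25b and -0.04 for Cdc6. The part of this split in the results was not tested, and the 6 genes are given below also without hrPC12 replicate 1.

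**Figure D3:**
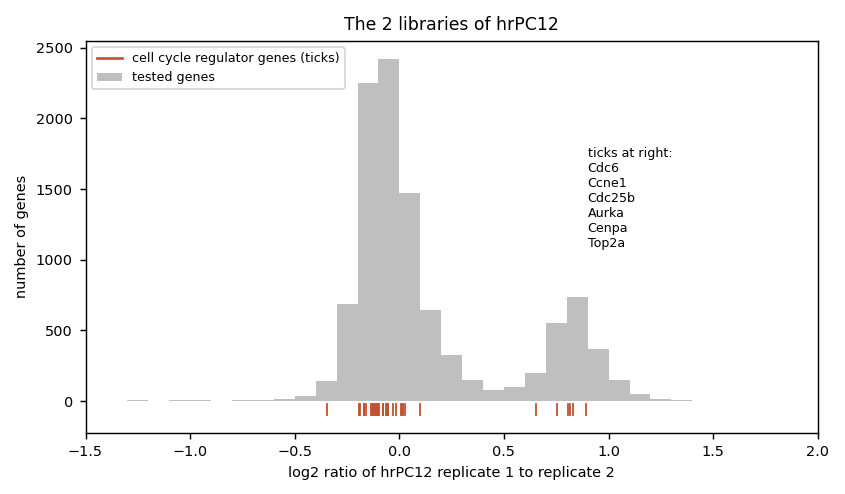
Number of genes by how far hrPC12 replicate 1 exceeded replicate 2 (log2 ratio), among genes with at least 100 normalized counts in hrPC12. Orange ticks below the axis are the members described here. The genes form separate peaks, and the 6 members named at the right lie in the smaller one.

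Promoter sequences are shown for the 6 members that rose and have an entry, beside 2 members that were not called and were picked because they hold an E2F element. They were taken from RefSeq (assembly GRCr8, not the build to which reads were aligned) as the 250 bases before the gene start, 5′ to 3′ on the strand of the gene, and capitals mark matches to 3 motifs. These are the E2F element (TTTCCCGC, TTTCGCGC, TTTGCCGC or TTTGGCGC), the cell cycle homology region CHR (TTTGAA or TTTAAA) and the CCAAT box (CCAAT), each on either strand. Cdkn1b (chr4:169491254-169491503, plus strand), Mcm2 (chr4:122918095-122918344, minus strand), Cenpa (chr6:31431553-31431802, minus strand), Cdc20 (chr5:137255800-137256049, minus strand), Cdkn2c (chr5:129644892-129645141, minus strand) and Mad2l1 (chr4:97236259-97236508, plus strand) rose. Mcm6 (chr13:42404353-42404602, minus strand) and Cdk1 (chr20:19265043-19265292, plus strand) did not pass the test in either direction.
Cdkn1b: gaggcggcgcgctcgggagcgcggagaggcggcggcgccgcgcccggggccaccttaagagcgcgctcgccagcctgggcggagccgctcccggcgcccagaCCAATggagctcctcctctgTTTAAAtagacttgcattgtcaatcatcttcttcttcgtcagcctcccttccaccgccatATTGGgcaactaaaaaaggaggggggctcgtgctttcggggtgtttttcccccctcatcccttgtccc
Mcm2: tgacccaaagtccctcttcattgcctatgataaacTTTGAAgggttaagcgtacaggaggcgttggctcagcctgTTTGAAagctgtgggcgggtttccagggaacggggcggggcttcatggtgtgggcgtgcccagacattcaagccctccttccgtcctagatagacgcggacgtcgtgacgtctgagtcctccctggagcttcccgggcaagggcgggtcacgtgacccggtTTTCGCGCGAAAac
Cenpa: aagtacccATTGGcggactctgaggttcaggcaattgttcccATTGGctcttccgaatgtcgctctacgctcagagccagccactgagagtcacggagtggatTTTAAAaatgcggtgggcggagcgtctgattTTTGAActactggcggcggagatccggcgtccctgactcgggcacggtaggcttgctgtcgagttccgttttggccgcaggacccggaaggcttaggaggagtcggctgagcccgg
Cdc20: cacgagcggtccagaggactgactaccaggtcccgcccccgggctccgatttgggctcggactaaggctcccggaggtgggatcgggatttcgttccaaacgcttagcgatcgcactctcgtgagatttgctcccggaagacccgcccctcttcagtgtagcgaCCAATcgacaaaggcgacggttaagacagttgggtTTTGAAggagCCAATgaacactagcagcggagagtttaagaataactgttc
Cdkn2c: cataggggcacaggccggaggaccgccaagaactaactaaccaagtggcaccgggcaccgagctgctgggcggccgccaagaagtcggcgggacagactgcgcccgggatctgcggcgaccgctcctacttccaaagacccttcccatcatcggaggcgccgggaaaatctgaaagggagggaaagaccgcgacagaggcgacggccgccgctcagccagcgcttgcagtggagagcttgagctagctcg
Mad2l1: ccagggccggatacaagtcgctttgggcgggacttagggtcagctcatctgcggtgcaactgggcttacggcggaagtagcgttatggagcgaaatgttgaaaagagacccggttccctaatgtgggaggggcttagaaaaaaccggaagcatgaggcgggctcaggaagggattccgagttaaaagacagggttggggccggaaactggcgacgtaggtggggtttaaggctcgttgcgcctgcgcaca
Mcm6: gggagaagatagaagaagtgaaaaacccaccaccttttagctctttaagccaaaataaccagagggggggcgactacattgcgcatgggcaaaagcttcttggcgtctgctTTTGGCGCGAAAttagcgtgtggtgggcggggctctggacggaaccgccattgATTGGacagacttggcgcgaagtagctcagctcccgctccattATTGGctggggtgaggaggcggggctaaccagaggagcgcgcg
Cdk1: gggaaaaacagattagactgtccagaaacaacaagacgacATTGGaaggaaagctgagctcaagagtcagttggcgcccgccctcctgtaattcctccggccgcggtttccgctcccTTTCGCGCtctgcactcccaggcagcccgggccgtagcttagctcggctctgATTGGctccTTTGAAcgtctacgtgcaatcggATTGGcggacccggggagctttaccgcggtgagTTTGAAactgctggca
The promoters of Cdkn2c and Mad2l1 hold none of the 3 motifs and have no capitals.
In Mcm2 and in Mcm6 the run in capitals holding the E2F element is a pair of overlapping matches, one on each strand, so it is counted as 1 promoter with the element.

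Promoters were found for 27 of the 36 tested members. The E2F element was present in 7 of the 27 (25.9%), in Rbl1, E2f3, Mcm2, Mcm6, Mcm7, Cdk1 and Cdc25a, against 1.81% of 27457 promoters of the same length. The CHR letters were present in 14 (51.9%) against 25.3%, and the CCAAT box in 16 (59.3%) against 34.3%. Among the 6 promoters of members that rose, 1 held the E2F element, 4 the CHR and 3 the CCAAT box, and among the 21 of members that were not called, 6, 10 and 13 did. Parts of the RE1 element bound by REST were also searched on both strands. The left part, TTCAGCACC, was in 0 of the 27 promoters of tested members and in 0.317% of all promoters, and the right part, GGACAGC, in 0 of 27 and in 5.34%. Cdkn2b, which had no reads and was not tested, held 1 match to the left part, read as GGTGCTGAA on the strand of the gene. Such matches describe letters in these windows and are not sites of binding.

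The G1 cyclins open the cycle. Cyclin D2 (Ccnd2) had 5 and 9 reads in wtPC12 and 441 and 345 in hrPC12, that is 5.82 and 9.27 normalized counts against 373 and 349. Both libraries of wtPC12 were near the floor of 3 reads (3.49 and 3.09 normalized counts) and far from hrPC12. The means were 7.54 ± 2.44 and 361 ± 17.1 (SD, n = 2 libraries), and the fitted difference was 46.8-fold, with a log2 FC of 5.55 (SE 0.40) and an adjusted p of 0.00101. The call held at an adjusted p under 0.05 without any one library, with a log2 FC from 5.23 to 5.93. Cyclin D1 (Ccnd1), the other D-type cyclin found, was abundant in both clones, at 6989 and 8855 normalized counts in wtPC12 and 10362 and 11166 in hrPC12. Its libraries did not overlap between the clones, and its log2 FC was 0.44 (SE 0.20) at an adjusted p of 0.139.

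The 4 genes that act at the start and during S phase were all higher in both libraries of hrPC12, as were 37.9% of all tested genes. Of the 4, 1 passed the test and rose, against 16.1% of all tested genes. Cyclin E2 (Ccne2), which activates Cdk2 at the G1 to S transition, had 1284 and 1154 normalized counts in wtPC12 and 2323 and 2308 in hrPC12. The libraries of each clone lay close together, and the gene rose by a log2 FC of 0.93 (SE 0.18, adjusted p = 0.0176), which was no longer called without hrPC12 replicate 1 (adjusted p = 0.0881) or replicate 2 (0.0911). Cyclin E1 (Ccne1) had 397 and 322 against 913 and 542 normalized counts, a wide spread in hrPC12. Its log2 FC was 1.02 (SE 0.34, adjusted p = 0.0723), and 0.59 without hrPC12 replicate 1 (adjusted p = 0.462). Ccne1 was called in DESeq2 (adjusted p = 0.0274), with library totals alone (0.0405) and without hrPC12 replicate 2 (0.0443). Cyclin A2 (Ccna2), the partner of Cdk2 in S phase, had 3209 and 3111 against 4245 and 4407 normalized counts, with a log2 FC of 0.45 (SE 0.16, adjusted p = 0.0805). Cdk2 had the smallest difference of the group, 1882 and 2146 against 2339 and 2669 normalized counts, and a log2 FC of 0.31 (adjusted p = 0.228). Over these 4 genes the log2 FC had a median of 0.69.

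Of the 3 tested CDK inhibitors, 2 rose, against 16.1% of all tested genes. Cdkn1b encodes p27, the Cip/Kip inhibitor of cyclin E and cyclin A complexes, and had 751 and 696 normalized counts in wtPC12 and 2745 and 2856 in hrPC12. The clones were well apart, with means of 724 ± 39.0 and 2800.5 ± 79.1 (SD, n = 2 libraries), a 3.87-fold difference and a log2 FC of 1.95 (SE 0.18, adjusted p = 0.00200). Its promoter, printed above, holds CCAAT boxes on both strands and a CHR, and no E2F element. Cdkn2c encodes p18, an INK4 inhibitor of Cdk4 and Cdk6, and had 1083 and 906 against 3408 and 3812 normalized counts. It rose 3.63-fold, with a log2 FC of 1.86 (SE 0.19, adjusted p = 0.00279). Both inhibitors kept an adjusted p under 0.05 without any one library, with a log2 FC from 1.88 to 1.98 for Cdkn1b and from 1.73 to 1.96 for Cdkn2c. Both log2 FC lay just inside the limit of 2 for DE genes, which Cdkn1b passed with library totals alone (2.02).

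Cdkn1a, which encodes p21, the other Cip/Kip inhibitor found, did not follow them. It had 805 and 994 normalized counts in wtPC12 and 886 and 878 in hrPC12, so that hrPC12 lay within the range of wtPC12, with a log2 FC of -0.03 (SE 0.22, adjusted p = 0.926). Cdkn2a and Cdkn2b, neighbouring genes that encode INK4 inhibitors and ARF, had 0 reads in all 4 libraries. With 3 reads as the limit that a count of 0 allows, their level was at most 2.54 to 3.49 normalized counts per library, for counting error only. They shared a count of 0 throughout with 7394 of the 25810 listed genes.

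**Figure D4:**
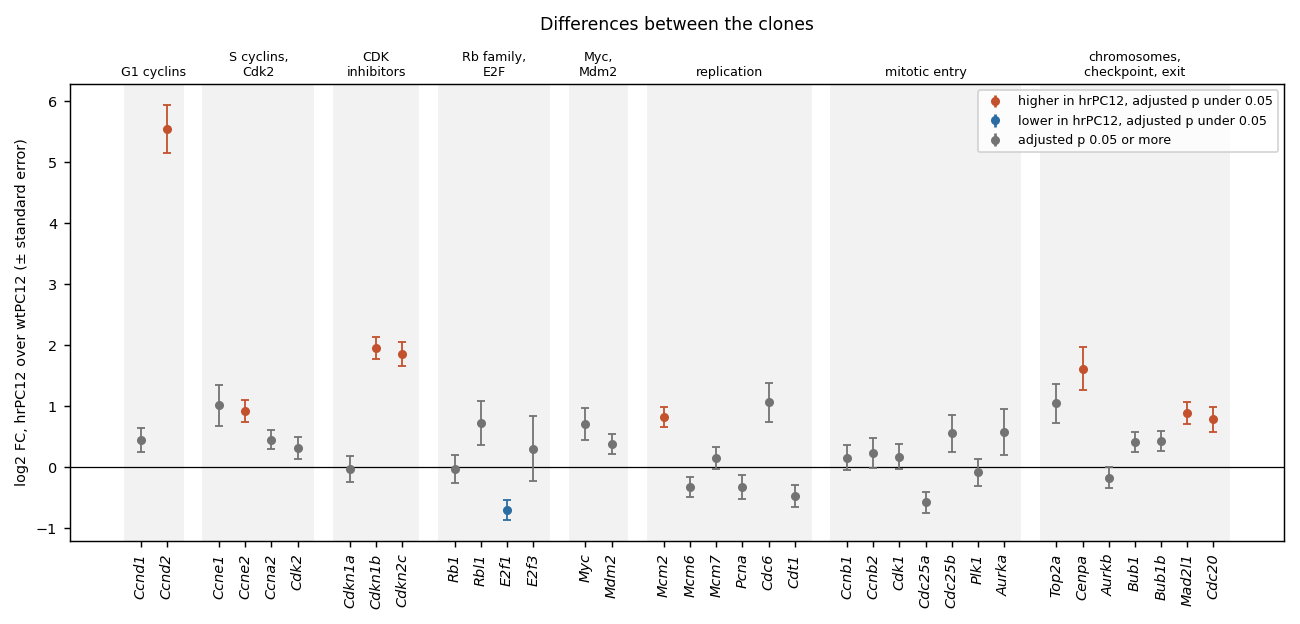
Log2 FC, hrPC12 over wtPC12, of the tested members described here, with standard errors from the edgeR fit, ordered by role. Orange points rose and the blue point, E2f1, fell at an adjusted p under 0.05, and grey points passed in neither direction. The 2 inhibitors Cdkn1b and Cdkn2c lie at 1.95 and 1.86 and Cdkn1a at -0.03, and all 7 genes of mitotic entry are grey.

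Among the pocket proteins and E2F factors, E2f1 fell. E2f1, an activator of genes for S phase, had 3251 and 3712 normalized counts in wtPC12 and 2123 and 2167 in hrPC12. Both libraries of hrPC12 were below both of wtPC12, with a 1.62-fold lower mean and a log2 FC of -0.70 (SE 0.17, adjusted p = 0.0325). The call was lost without hrPC12 replicate 1 (adjusted p = 0.239) or replicate 2 (0.138), and with library totals alone (0.0575). E2f3, the other activator found, was low and scattered, at 47.7 and 128 against 95.7 and 121 normalized counts (log2 FC 0.30, SE 0.54, adjusted p = 0.680). Its log2 FC turned to -0.26 when wtPC12 replicate 1 was left out and to 1.18 when wtPC12 replicate 2 was. Rb1, the retinoblastoma pocket protein, had 1459 and 2062 against 1739 and 1716 normalized counts, and a log2 FC of -0.03 (adjusted p = 0.931). Rbl1, which encodes p107, had 852 and 1765 against 2152 and 2173. The libraries of wtPC12 differed more from each other than the nearer one did from hrPC12, and the log2 FC was 0.72 (SE 0.37, adjusted p = 0.182), or 1.34 (adjusted p = 0.0203) when wtPC12 replicate 2 was left out and 0.26 (0.331) when wtPC12 replicate 1 was. The group's median log2 FC of 0.14 turned to -0.27 when wtPC12 replicate 1 was left out and to 0.71 when wtPC12 replicate 2 was.

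Neither Myc nor Mdm2 passed in edgeR or DESeq2, and Myc had an unadjusted p under 0.05. Myc, which promotes growth and entry into the cycle, had 315 and 418 normalized counts in wtPC12 and 582 and 621 in hrPC12. The clones did not overlap, and the log2 FC was 0.71 (SE 0.26, adjusted p = 0.0913), with an adjusted p of 0.0453 without wtPC12 replicate 2, 0.185 without wtPC12 replicate 1, and 0.301 and 0.345 without hrPC12 replicates 1 and 2. Mycn, its neural relative, had 13 and 21 reads in wtPC12 and none in hrPC12, and was therefore outside the test. Against the floor of 3 reads per library, Mycn was at least 6.05-fold lower in hrPC12, and in the fits that kept it its adjusted p was between 0.00511 and 0.0101. Mdm2, a ubiquitin ligase that promotes growth, had 2216 and 2063 against 2699 and 2850.3, and a log2 FC of 0.37 (SE 0.16, adjusted p = 0.136).

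Of the 6 tested replication genes, 1 rose in edgeR (Mcm2), against 16.1% of all tested genes, and 0 fell, against 16.3%. In DESeq2, 2 rose (Mcm2 and Cdc6) and 0 fell. Of the 6 genes, 3 had a log2 FC above 0 and 3 below it. The median log2 FC was -0.09, or 0.03 without wtPC12 replicate 1. Before adjustment, 3 of the 6 had a p under 0.05 in edgeR, namely Mcm2, Cdc6 and Cdt1, and of these only Mcm2 passed after it. Mcm2, a subunit of the MCM helicase that is loaded at origins, had 2949 and 3203 normalized counts in wtPC12 and 5194 and 5653 in hrPC12. It rose 1.76-fold, with a log2 FC of 0.82 (SE 0.16, adjusted p = 0.0198), and was not called without wtPC12 replicate 1 (adjusted p = 0.0602), hrPC12 replicate 1 (0.0827) or hrPC12 replicate 2 (0.139). Mcm6 and Mcm7, the other subunits of this complex that were found, did not pass the test. Mcm6 had 9299 and 8783 against 6954 and 7479.5 normalized counts, lower in both libraries of hrPC12, with a log2 FC of -0.33 (SE 0.16, adjusted p = 0.179). Mcm7 had 6920.2 and 5794 against 6635 and 7472, and its clones overlapped (log2 FC 0.15, adjusted p = 0.548). The promoters of all 3 of these genes held the E2F element.

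Pcna, the sliding clamp of the polymerases, had 10129.6 and 8192 normalized counts in wtPC12 and 6993 and 7642 in hrPC12, with a log2 FC of -0.32 (SE 0.19, adjusted p = 0.233). The licensing factors Cdc6 and Cdt1, which load the helicase together, did not pass the test. Cdc6 had 347 and 450.2 against 1018 and 649 normalized counts, a log2 FC of 1.06 (SE 0.32, adjusted p = 0.0568). Cdc6 was called with RLE factors (adjusted p = 0.0414), with library totals alone (0.0372), with every gene with a read (0.0378), in DESeq2 (0.0139) and without hrPC12 replicate 2 (0.0427). Its adjusted p was 0.344 without hrPC12 replicate 1, where the log2 FC was 0.70. Cdt1 had 1922 and 1992 against 1379.9 and 1444, lower in both libraries of hrPC12, with a log2 FC of -0.47 (SE 0.17, adjusted p = 0.0935).

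Of the 7 genes of mitotic entry, 0 passed edgeR's test, in which 16.1% of all tested genes rose and 16.3% fell. Only Cdc25a had an unadjusted p under 0.05, and it also passed in DESeq2. In 5 of the 7 genes the clones overlapped. Both libraries of hrPC12 were higher in 1 gene and lower in 1, against 37.9% and 35.6% of all tested genes. Over the 7 genes the log2 FC ran from -0.58 to 0.58 with a median of 0.18. This median became 0.37 when wtPC12 replicate 1 was left out and -0.03 when replicate 2 of that clone was. Cdk1, the kinase that drives mitosis, had 6339.7 and 4864 normalized counts in wtPC12 and 6033 and 6618 in hrPC12, and a log2 FC of 0.18 (SE 0.20, adjusted p = 0.521). Its cyclins, Ccnb1 with 4207 and 3091 against 3887 and 4256 and Ccnb2 with 4531 and 3001 against 4133 and 4722, showed the same arrangement, in which wtPC12 replicate 2 was the lowest library. Plk1, the polo kinase of mitotic entry, had 3634 and 2595 against 2768 and 3107 (log2 FC -0.08, adjusted p = 0.784).

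The Cdc25 phosphatases, which remove the inhibitory phosphates of the CDKs, differed from each other in direction without passing the test. Cdc25a had 2162 and 2345 normalized counts in wtPC12 and 1472 and 1553 in hrPC12, with a log2 FC of -0.58 (SE 0.17), an adjusted p of 0.0569 and, in DESeq2, 0.0466. Cdc25b had 1413 and 1365 against 2605 and 1490.4, where hrPC12 replicate 1 stood apart. Its log2 FC of 0.56 (SE 0.30, adjusted p = 0.206) was 0.10 without that library. Aurka, the Aurora kinase of the centrosome, had 828 and 544 against 1306 and 742, with overlapping clones and a log2 FC of 0.58 (SE 0.37, adjusted p = 0.274), or 0.11 without hrPC12 replicate 1.

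Of the 7 genes for chromosomes, the spindle checkpoint and mitotic exit, 3 rose, against 16.1% of all tested genes. Both libraries of hrPC12 lay above both of wtPC12 in 6 of the 7, against 37.9% of all tested genes. The median log2 FC of the 7 was 0.79. Cenpa, the histone H3 variant that marks centromeres, had 304 and 249 normalized counts in wtPC12 and 1084 and 610.1 in hrPC12. It rose 3.07-fold, with a log2 FC of 1.62 (SE 0.36, adjusted p = 0.0260), and its log2 FC was 1.14 (adjusted p = 0.0872) without hrPC12 replicate 1. The adjusted p of Cenpa was also past the limit without wtPC12 replicate 2 (0.115). Top2a, the topoisomerase that untangles sister chromatids, had 2669 and 2827 against 7395 and 3982 normalized counts. Here too replicate 1 of hrPC12 was far above replicate 2, and the log2 FC was 1.05 (SE 0.32, adjusted p = 0.0600), or 0.54 (adjusted p = 0.362) without it. Top2a was called with RLE factors (adjusted p = 0.0345), with library totals alone (0.0280), with every gene with a read (0.0292), in DESeq2 (0.0124) and without hrPC12 replicate 2 (0.0105).

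The checkpoint genes were more even than these between the libraries of hrPC12. Mad2l1, which encodes the inhibitor of the anaphase-promoting complex, had 1054 and 1039 normalized counts in wtPC12 and 1868 and 2019.6 in hrPC12, and rose 1.86-fold (log2 FC 0.89, SE 0.18, adjusted p = 0.0203). Cdc20, the activator that Mad2l1 holds back, had 3291 and 2468 against 4775 and 5173 normalized counts, and rose 1.73-fold (log2 FC 0.79, SE 0.21, adjusted p = 0.0401). Neither was called without hrPC12 replicate 1 (adjusted p = 0.0852 for Mad2l1 and 0.0982 for Cdc20) or replicate 2 (0.138 and 0.165), and Cdc20 not without wtPC12 replicate 2 (0.0531). The checkpoint kinases lay between. Bub1 had 4267 and 4808 against 6116 and 6000.2 (log2 FC 0.42, adjusted p = 0.108), and Bub1b 2934 and 3316 against 4148 and 4311 (log2 FC 0.44, adjusted p = 0.0994). Aurkb, the Aurora kinase that corrects attachments at the centromere, had 4223 and 3589 against 3342 and 3592, with overlapping clones and a log2 FC of -0.17 (adjusted p = 0.471).

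A wider list of 181 other cell cycle genes was read beside the members, of which 147 were found and 146 tested. At an adjusted p under 0.05, 26 rose and 9 fell, against the 16.1% and 16.3% of all tested genes given above, and their median log2 FC was 0.28. Of the 26 that rose, 13 belonged to the genes in which hrPC12 replicate 1 exceeded replicate 2 by a log2 ratio past 0.5. Of the 8 members that rose, 1 did, Cenpa. Among genes with at least 100 normalized counts in hrPC12 the share was 20.6%. No share among all genes that rose is given here, so these counts carry no closer comparison. The size of the differences was again small, with 77.4% of the list within a log2 FC of 1. Among the genes that rose, Gadd45a, a stress gene that restrains Cdk1, had 319.9 and 193 against 2661 and 2821 normalized counts and rose by a log2 FC of 3.42 (adjusted p = 0.00197). The death receptor Fas had 2 and 0 reads in wtPC12 and 151 and 115 in hrPC12, at least 35.0-fold higher. Ei24, a gene of growth arrest and cell death, fell from 6099 and 5665 to 2703 and 2956 normalized counts (log2 FC -1.06, adjusted p = 0.00965). Gadd45a, Fas and Ei24 belong to the same list, in which 5 of 15 tested genes rose and 3 fell. Aen was also among those that fell (log2 FC -0.83, adjusted p = 0.0232). Its log2 FC ran from -0.91 to -0.80 when a library was left out, but its call was not kept in every such fit.

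Of 32 tested replication genes, 6 rose and 3 fell, against 16.1% and 16.3% of all tested genes. Dbf4, the activator of the Cdc7 kinase, had 528 and 371 against 2480.4 and 1278 normalized counts (log2 FC 2.06, adjusted p = 0.0181), and Rrm2, a subunit of ribonucleotide reductase, 1434 and 1550.3 against 6429 and 3428 (log2 FC 1.72, adjusted p = 0.0180). Both had ratios of hrPC12 replicate 1 to replicate 2 near those of Top2a, at 1.94 and 1.88. Gins2, a subunit of the GINS complex that works with the MCM helicase, fell from 5539 and 5438 to 1949 and 2249 (log2 FC -1.39, adjusted p = 0.00479), and Pola2, a subunit of polymerase alpha, from 2809 and 2527 to 1576 and 1697 (log2 FC -0.71, adjusted p = 0.0339). The adjusted p of Pola2 reached 0.0539 among the other processing choices, where the call was lost. Of the other genes of the pocket protein and MuvB list, 1 of 10 rose, Foxm1, an activator of mitotic genes, with 1320.3 and 1453 against 2589 and 2667 normalized counts (log2 FC 0.92, adjusted p = 0.0162).

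Of 44 tested mitotic genes, 10 rose and 2 fell, against 16.1% and 16.3% of all tested genes. Ncapg, a subunit of condensin, had 187 and 302 against 1717 and 893 normalized counts (log2 FC 2.41, adjusted p = 0.0148), and Cenpf, a kinetochore protein, 729 and 748 against 4275 and 1970.0 (log2 FC 2.08, adjusted p = 0.0178), both with hrPC12 replicate 1 far above replicate 2. Nuf2, of the kinetochore complex that holds microtubules, fell from 7483 and 6555 to 2292 and 2281 (log2 FC -1.62, adjusted p = 0.00291), and Nusap1, a spindle protein, from 5173 and 4077 to 2460.1 and 2762 (log2 FC -0.82, adjusted p = 0.0315). Among 9 tested genes of the list of cyclins, kinases and Cks proteins, Cks2 rose (log2 FC 1.27, adjusted p = 0.0469) and Ccng2, a cyclin that accompanies arrest, fell (log2 FC -1.02, adjusted p = 0.0466). One gene rose and none fell in each of the lists of CDK inhibitors (Cdkn3, 1 tested, log2 FC 1.30, adjusted p = 0.0475), the damage checkpoint (the kinase Atr, 1 of 13 tested, log2 FC 1.98, adjusted p = 0.0292) and the ubiquitin ligases (the scaffold Cul1, 1 of 16 tested, log2 FC 0.97, adjusted p = 0.0134). In Atr, Cks2 and Cdkn3, too, hrPC12 replicate 1 exceeded replicate 2, with ratios of 2.05, 1.63 and 1.63, and the log2 FC was as low as 1.37 for Atr and 1.42 for Cenpf with a library left out. Of the genes named from these wider lists, Gadd45a, Fas, Gins2 and Nuf2 kept an adjusted p under 0.05 in all 4 fits that left out a library. Ei24, Dbf4, Ncapg and Cul1 kept it in 3 of the 4 fits, Rrm2, Foxm1, Cenpf, Cks2, Cdkn3 and Atr in 2, and Pola2, Nusap1 and Ccng2 in 1. For Fas these fits are no measure of stability, because wtPC12 had 2 and 0 reads and, without its replicate 1, had 0 reads. Of 7 tested genes of the Myc network, 0 passed in edgeR or in DESeq2, and 0 had an unadjusted p under 0.05.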

How the data were processed

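The deposited values are raw counts, 1 per gene and library, which the authors made by aligning read pairs to rn4 and did not normalize. The submitters' processing notes name TopHat2 2.0.4, HTSeq 0.5.3 and DESeq 1.9.12, and the strand setting is not given in the sources used here, so reads of overlapping genes on opposite strands cannot be told apart. Reads without a unique position were not counted, which lowers genes with near-identical copies. The authors' DESeq table of pooled means, fold changes and p values was not used. Libraries were grouped by the labelled REST level. Counts were scaled with TMM factors and compared with edgeR 4.0.16 in R 4.3.3 by the quasi-likelihood test (legacy option on), with Benjamini-Hochberg adjustment, after the study's filter, which drops genes averaging under 5 normalized counts or without reads in one clone. Normalized counts are reads divided by the effective library size and multiplied by its mean over the libraries. Reads carry no molecular identifiers, so floors of 3 reads cover counting error only. Within each clone the 2 libraries differed beyond counting noise, with a mean chi-square per gene of 92.4 and 66.4. The tests were tested on simulated data. Alternatives were RLE factors, library totals alone, other filters, DESeq2 1.42.0, the legacy option off, a prior count of 2, and each library left out.

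The members and the gene lists were chosen with earlier results of these data known. Named genes are all members, Rest and, of each other list, up to 2 genes in each direction with an adjusted p under 0.05, those with the largest log2 FC among genes that reach 100 normalized counts in the clone where they are higher. Genes were placed beside neighbours by symbol on the RefSeq assembly GRCr8, whose promoters were also searched. One member and 1 marker enter the totals and are not reported here.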

Additional observations from a re-analysis of the deposited data

How the results depend on the processing

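All members kept their direction where they were called. The 9 members called at an adjusted p under 0.05 were kept by RLE factors, by both filters, by DESeq2 and with the legacy option off, and 8 of them, all but E2f1, with library totals alone. The members that rose then numbered 8 to 11, while over all genes the number that rose went from 2215 to between 2295 and 2937. The members that fell numbered 0 with library totals alone and 2 with every gene with a read, with filterByExpr and with DESeq2. Among DE members, 1 was lower with every gene with a read, which admits Mycn, and 2 were higher with library totals alone. Leaving out each library gave 3 to 8 members that rose and 0 to 1 that fell, with the lowest counts without hrPC12 replicate 1 (3 and 0), where over all tested genes 1608 rose and 1532 fell in place of 2215 and 2234, and 0 to 1 DE members higher, with 0 without wtPC12 replicate 2, where 0 genes of all tested were DE in either direction. DE members lower were 0 in each. Of the other cell cycle genes, 17 to 27 rose and 2 to 11 fell, the fewest in both without hrPC12 replicate 1. The 9 members called numbered 8, 7, 3 and 4 without wtPC12 replicate 1, wtPC12 replicate 2, hrPC12 replicate 1 and hrPC12 replicate 2. In these fits the lone library of a clone is assumed to vary like the others, and the cause of these losses was not tested. By exact names, chosen as an alternative after seeing the data, 7 rose and 1 fell. Over all tested genes, DE genes numbered 749 lower and 665 higher, and 977 and 1127 with every gene with a read, which tests more genes. No paired analysis was run, because the labels give no replicate numbers that the clones share. The replicate numbers used here follow the order in which the libraries are listed and pair nothing between the clones. With 13 and 21 reads in wtPC12, Mycn allows a lower bound of its difference and no more.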

Other observations

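The genes next to Cdkn2a and Cdkn2b in the rat genome, chosen after their values were seen, were counted in every library. Mtap, an enzyme of methionine salvage, had 125 and 222 reads in wtPC12 and 1273 and 902 in hrPC12. Dmrta1 had 36 and 49 reads in wtPC12 and 329 and 260 in hrPC12. Cdkn2a and Cdkn2b had none.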
